A study of Salmo salar with 18 samples.

Results

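igfbp2b1 is a liver-expressed gene of Atlantic salmon (Salmo salar) for an insulin-like growth factor binding protein, and it was measured by 1 probe, C206R122, of the 43689 probes on a salmonid oligonucleotide array. The probe was chosen by its array values in the warmed fish, so its levels are described here without a test. Liver RNA of 18 fish was hybridized, with 6 fish from each of 3 treatments and 3 fish from either of its 2 tanks. Control (CT) fish were kept at 12 °C and 100% air saturation, warm and normoxic (WN) fish were warmed from 12 °C by 1 °C per week to 20 °C at 100% air saturation, and warm and hypoxic (WH) fish were first brought to 70% air saturation and then warmed in the same way at 70%. All fish were post-smolts in seawater that were fed by hand to satiation and fasted before sampling. The study reports that WH fish ate less and grew less than WN and CT fish, so food intake differed between treatments too. The part of food intake in the values below was not tested. The treatment was given to a tank, so tank and treatment cannot be told apart beyond the pair of tanks that each treatment had. RNA of each fish was labelled with Cy5 and a pool made from equal amounts of RNA of the same 18 fish with Cy3, with no dye swap, so every value below is the log2 ratio of a fish to that pool.

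Insulin-like growth factors (IGFs) are hormones made largely by the liver under the control of growth hormone, and they promote growth and the building of protein. In blood most IGF is carried by binding proteins, which lengthen its life and keep it from, or bring it to, its receptor. IGFBP2 is one of the main circulating binding proteins and is produced by the liver. In mammals it rises in fasting and falls with insulin, and it is mostly regarded as holding IGF back from its receptor. Salmonids carry several copies of most of these genes after rounds of genome duplication. The RefSeq annotation of the salmon genome (assembly Ssal_v3.1) has 17 genes named as IGF binding proteins by symbol or synonym, igfbp7 among them. Of these, 3 are copies of IGFBP2, named igfbp-2a, igfbp-2b1 and igfbp-2b2. Genes listed only under other names were not counted. In that annotation igfbp-2b1 is the direct neighbour of the gene with the synonym IGFBP-5B2, and igfbp-2b2 that of igfbp-5b1. The study's own table assigns C206R122 to igfbp-2b1. The letters of the probe were not used here, so how far it also binds RNA of igfbp-2b2 was not tested.

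The study also measured igfbp2b1 by qPCR, and the amplified stretch is shown as the study gives it for this copy. It was not aligned here to the copies of IGFBP2. It is 112 bases long with a GC content of 54.5%, and the capitals mark the forward primer (23 bases) at the left end and the site of the reverse primer (22 bases) at the right end.
igfbp2b1 amplicon: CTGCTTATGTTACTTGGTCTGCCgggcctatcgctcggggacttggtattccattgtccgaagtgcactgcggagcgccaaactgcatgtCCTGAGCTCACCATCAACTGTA
The 67 bases between the primer sites had a GC content of 58.2%. The qPCR values were not analysed here. The array values given below are higher in warmed fish and differ between WN and WH. The mean qPCR change of this gene runs the other way and is about the same in WN and WH. It did not pass the study's test for a treatment effect. The qPCR covered more fish per treatment than the arrays. The study itself lists igfbp2b1 among the genes whose direction differed between array and qPCR. For genes that qPCR did not bear out, it proposes differences in technology, sample size or statistics, or cross-hybridization of paralogs on the array. None of these was tested here. The assays were not compared here.

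The spot of C206R122 was clean on every array. It carried a quality flag on 0 of 18 arrays and was saturated on 0 of 18 in either channel. It stood above the local background by more than 2 background SDs in both channels on 18 of 18 arrays. The median spot signal in the Cy5 channel, which holds the fish, was 346, 713, 176.5, 683, 393 and 496 in CT-1 to CT-6. It was 4226, 12060, 6279, 439.5, 3475.5 and 6186 in WN-1 to WN-6. In WH-1 to WH-6 it was 7747.5, 614.5, 297.5, 755, 336.5 and 2911. Thus 5 of the WN fish and 2 of the WH fish gave signals far above every CT fish, while WN-4, WH-2, WH-3 and WH-5 were within the CT range and WH-4 just above it. The pool signal in the Cy3 channel spanned only 1703 to 4355 in CT, 1720 to 4407 in WN and 1638 to 4397 in WH. Each set against the median signal of its own array and channel, the Cy5 signals had an SD of 1.91 on the log2 scale over the 18 arrays and the Cy3 signals an SD of 0.43. The spread in the ratio was therefore mostly a spread of the fish channel.

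**Figure D1:**
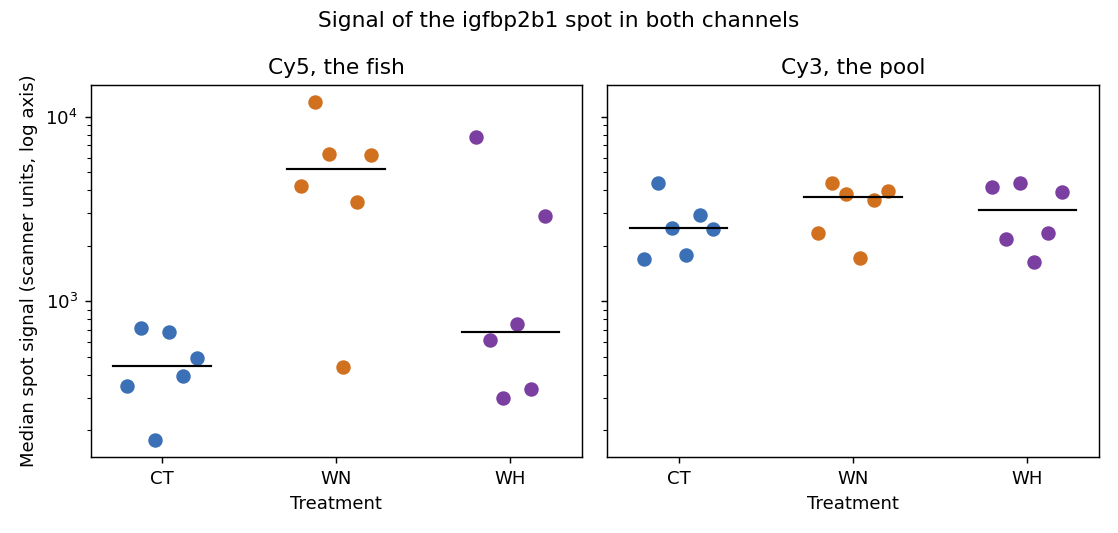
Median signal of the igfbp2b1 spot in the Cy5 channel (the fish, left) and the Cy3 channel (the common pool, right), in scanner units on a log axis. Each point is 1 array, the 6 arrays of a treatment are spread sideways, and black lines are group medians. In Cy5 the points run from 176.5 to 12060, and in Cy3 from 1638 to 4407.

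After background correction and loess normalization within each array, the log2 ratio in CT-1 to CT-6 was -2.49, -2.19, -2.57, -1.80, -3.28 and -2.44. All 6 CT fish were thus well below the pool. In WN-1 to WN-6 it was 0.91, 1.72, 1.64, -1.35, 0.48 and 1.16, so 5 fish lay above the pool and WN-4 below it. In WH-1 to WH-6 it was 1.28, -2.03, -2.80, -1.50, -2.33 and 0.02. Here WH-1 lay in the range of the high WN fish, WH-6 was at the level of the pool, and the remaining fish were low.

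The group means were -2.46 ± 0.49 in CT, 0.76 ± 1.13 in WN and -1.23 ± 1.57 in WH (log2 ratio, SD, n = 6 each). The medians were -2.46, 1.04 and -1.77, so the WH median lay nearer to CT than the WH mean did. WN minus CT was 3.22 ± 0.56 (difference of mean log2 ratios with the SE of a limma fit of the 3 groups), which is 9.31-fold. WH minus CT was 1.23 ± 0.56, or 2.35-fold, and WH minus WN was -1.99 ± 0.56. The fit takes 1 spread for all 3 groups, so the SE is the same throughout and does not show the wider spread in WH. By medians these differences were 3.50, 0.70 and -2.80. The order of the means was CT, WH, WN. CT and WH overlapped, with 3 of 6 WH fish within the CT range and 3 above it, and WH and WN overlapped, with 2 of 6 WH fish within the WN range and 4 below it. All 6 WN fish lay above all 6 CT fish. Of the 19495 probes with a value on all 12 arrays, 1.43% had every WN fish above every CT fish. These are the values the probe was chosen by, and nothing is read from that share.

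**Figure D2:**
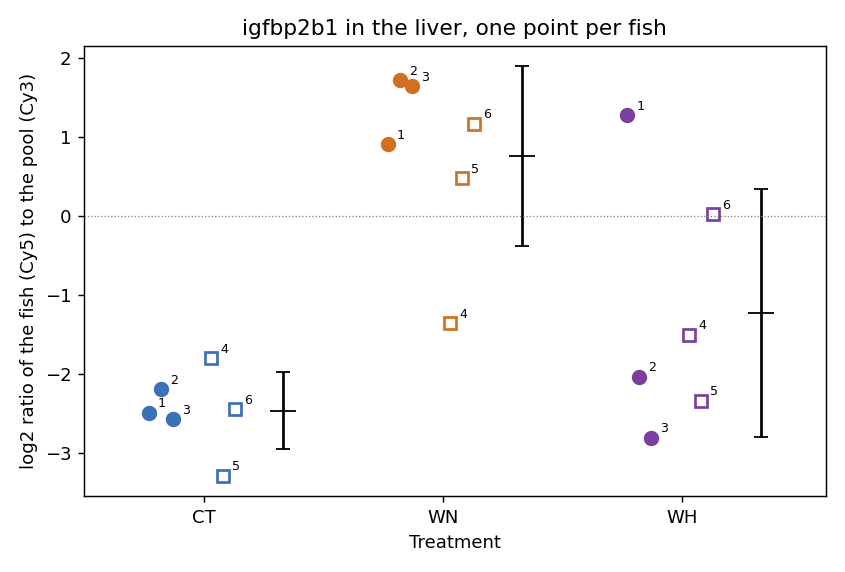
Log2 ratio of igfbp2b1 in the liver of each fish (Cy5) to the common pool (Cy3), by treatment. Filled circles are fish of tanks T3 (CT), T2 (WN) and T1 (WH), open squares fish of tanks T4, T5 and T6, small digits are fish numbers, and the black marks are the mean and SD of 6 fish. CT fish lie between -3.28 and -1.80, WN fish between -1.35 and 1.72, and WH fish between -2.80 and 1.28.

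Among the 18651 tested probes with a value on every array, the increase of igfbp2b1 in WN v CT ranked first, and its decrease in WH v WN also ranked first. In WH v CT its increase ranked 155. These ranks rest on the values the probe was chosen by, so nothing is read from them. The median change over these probes was 0.00 in WN v CT, 0.03 in WH v CT and 0.04 in WH v WN on the log2 scale. The WN v CT and WH v CT differences share the CT fish, and WH v WN shares its fish with both.

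The single values did not spread evenly. With the 18 fish put in order, the widest step between neighbours was 1.38 on the log2 scale, from WN-4 at -1.35 to WH-6 at 0.02, and the next widest step was 0.48. Above the wide step lay 7 fish (0 CT, 5 WN and 2 WH) and below it 11. The same 7 fish were above the widest step in the authors' normalized values, where it ran from -1.52 to 0.01. They were also above it after plain background subtraction, without background correction and with spot means in place of medians. When the arrays were only centred on their medians, without loess, the 5 fish WN-1, WN-2, WN-3, WN-6 and WH-1 lay above the widest step, and WN-5 at -0.39 and WH-6 at -0.78 came next.

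**Figure D3:**
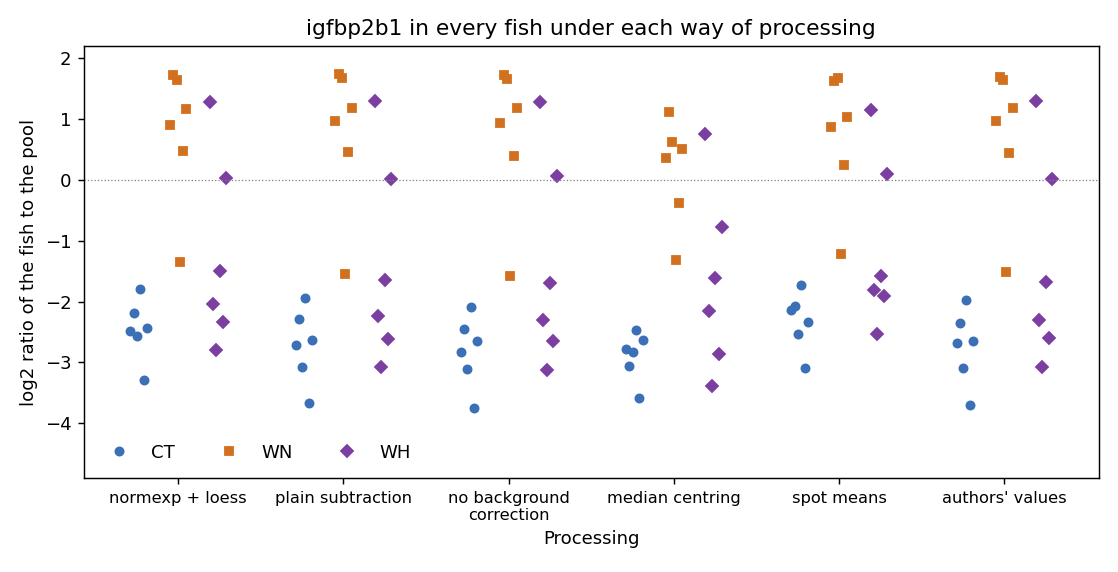
Log2 ratio of igfbp2b1 in each of the 18 fish under 6 ways of processing, with CT as circles, WN as squares and WH as diamonds. With loess in any form the high fish stand apart by 1.31 to 1.64 from the low fish, and with median centring the widest step is 0.74.

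The spread among fish was much wider in WH than in controls, and it was also wider in WN, there mostly through 1 fish. The SD of igfbp2b1 among 6 fish was 0.49 in CT, which 31.2% of the 18651 probes exceeded. In WN it was 1.13, which 0.777% of probes exceeded. In WH it was 1.57, which 0.225% exceeded, or 42 probes. As the spread within WH was part of what the probe was chosen by, nothing is read from these shares. The median SD over the same probes was 0.39 in CT, 0.44 in WN and 0.39 in WH, so the typical probe was about as variable in WH as in CT. Leaving out 1 fish at a time, the SD of igfbp2b1 within WH ran from 1.09 (without WH-1) to 1.74. Within WN it ran from 0.52 (without WN-4) to 1.26. WN-4 thus set much of the spread in that treatment, and without it the SD was close to the 0.49 of CT.

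**Figure D4:**
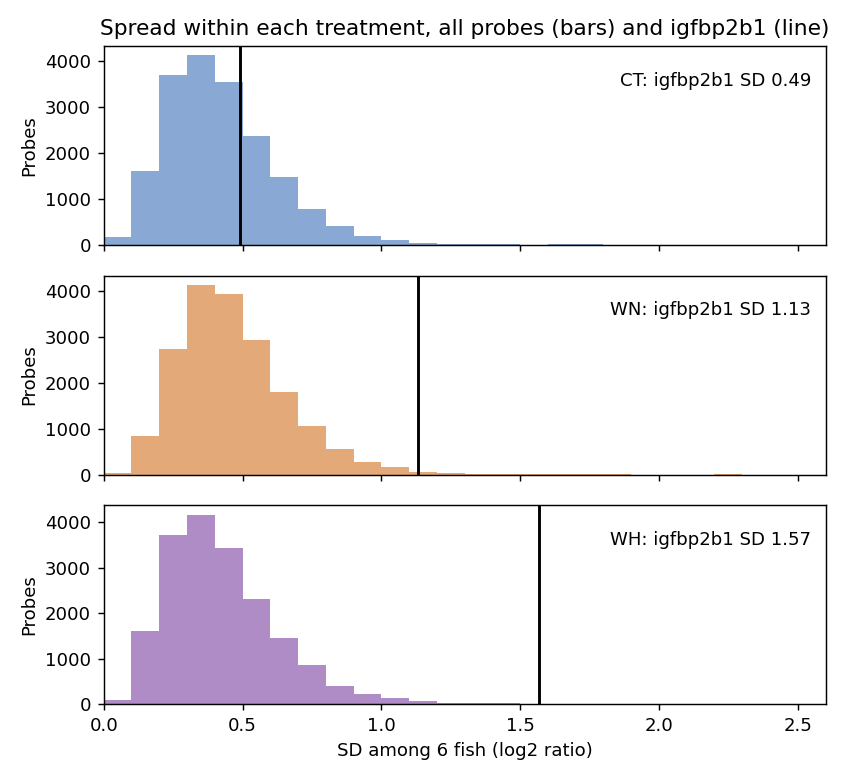
Numbers of probes by the SD of their log2 ratio among the 6 fish of CT, WN and WH (bars, bin width 0.1, 18651 probes), with the SD of igfbp2b1 as a black line. The line sits near the bulk of the probes in CT at 0.49 and moves out to 1.13 in WN and 1.57 in WH. The horizontal axis is shortened at the right.

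In WH, both tanks held high and low fish. Tank T1 held WH-1 at 1.28 with WH-2 and WH-3 at -2.03 and -2.80, and tank T6 held WH-6 at 0.02 with WH-4 and WH-5 at -1.50 and -2.33. The tank means were -1.19 and -1.27, so the spread in WH was within tanks and not between them. In WN the mean of tank T2 was 1.42 ± 0.45 (SD, n = 3) and that of tank T5, which held WN-4, 0.10 ± 1.30. The CT tanks had means of -2.41 ± 0.20 and -2.51 ± 0.75.

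The sample titles carry 5 codes such as X524, which are read here as slides, and all of these slides mixed treatments. WN fish were above CT fish on each of the 3 slides that held both, by 3.05, 3.67 and 2.37 on the log2 scale. WH minus CT was 1.52, 2.53 and 3.47 on the 3 slides that held both, each from 1 or 2 fish per treatment. The 2 lowest WH fish, WH-3 and WH-5, were on X547, which held no CT fish, so neither is in these values. The 2 highest, WH-1 on X528 and WH-6 on X526, were each the only WH fish on their slide. WH-2 and WH-4 shared X525. High and low WH fish thus lay on different slides, so fish and slide cannot be told apart in that spread. The part of the slides in it was not tested. The WN fish on X547, WN-3 and WN-5, were at 1.64 and 0.48. WH minus WN was -1.14 and -3.63 on the slides X526 and X547, but 1.09 on X528, where the WH fish was WH-1 and WN-4 was one of the 2 WN fish. With slide as a block in the fit, WN minus CT was 3.39, WH minus CT 1.80 and WH minus WN -1.59. The WH minus CT value also depended on single fish: it was 0.73 without WH-1 and 0.98 without WH-6, against 1.23 with all.

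The spots around C206R122 on the array showed no like pattern. The 7 neighbouring probe spots had WN minus CT differences between -0.15 and 0.29, and WH minus CT differences between -0.75 and 0.16. Of these, C205R121, C205R123 and C206R123 did not pass the filter on signal and flags, so they could show little.

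Because the pool was made of equal amounts of RNA of the same fish, the ratios of the 18 fish on the linear scale should average 1 for a probe that reads both dyes alike. For igfbp2b1 this mean was 0.99. Over the 18651 probes its median was 1.02, with a 5th percentile of 0.836 and a 95th of 1.35. Of the sum of the 18 linear ratios, WN fish gave 69.0%, WH fish 24.6% and CT fish 6.40%. The pool level thus followed a few WN and WH fish most of all. With median centring the mean was 0.637.

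The probes most like igfbp2b1 were found by Pearson's r over the 18 arrays among the probes with a value on every array. The points share the treatments, the pool and the slides, so these values are a description with no test. Over all 18650 other probes, r had a median of 0.01 and its central 95% lay between -0.56 and 0.54. The highest was 0.85, at C061R090, a probe without a name in the tables used here. It was followed by C003R141, also without a name, with 0.80. The third was CBX1 (C209R100), a chromobox protein that binds methylated histone H3 in heterochromatin, with 0.79. The fourth was ndufa4 (C097R143), a subunit associated with cytochrome c oxidase of the mitochondrial respiratory chain, with 0.79. The fifth, C017R151, had 0.78 and no name. The spots of C061R090, C003R141, CBX1 and ndufa4 stood above background in both channels on 18 of 18 arrays. That of C017R151 did so on 15 arrays in Cy5 and 10 in Cy3, so part of its values are at the background and its r has little meaning.

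ndufa4 shared the wide spread in WH. Its log2 ratio in WH-1 to WH-6 was 1.06, -2.54, -1.77, -0.78, -2.28 and -0.03, so the 2 highest fish, WH-1 and WH-6, were also the 2 highest for igfbp2b1. In WN its lowest, median and highest values were -0.09, 0.28 and 0.92, and WN-4 at 0.38 was not low. In CT they were -2.62, -1.96 and -0.29. The groups WN and CT did not overlap for ndufa4, whose WN minus CT was 1.98 ± 0.49 and whose WH minus CT was 0.59 ± 0.49. These are log2 differences with the SE of the same fit, which again takes 1 spread for all groups. CBX1 moved over a smaller range, with group means of -0.67 ± 0.28 in CT, 0.09 ± 0.34 in WN and -0.13 ± 0.25 in WH (SD, n = 6). For CBX1 the lowest WN fish was again WN-4, at -0.48, and the highest WH fish again WH-1, at 0.15. Both probes were picked for running like igfbp2b1, so their differences between treatments are not tested here.

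**Figure D5:**
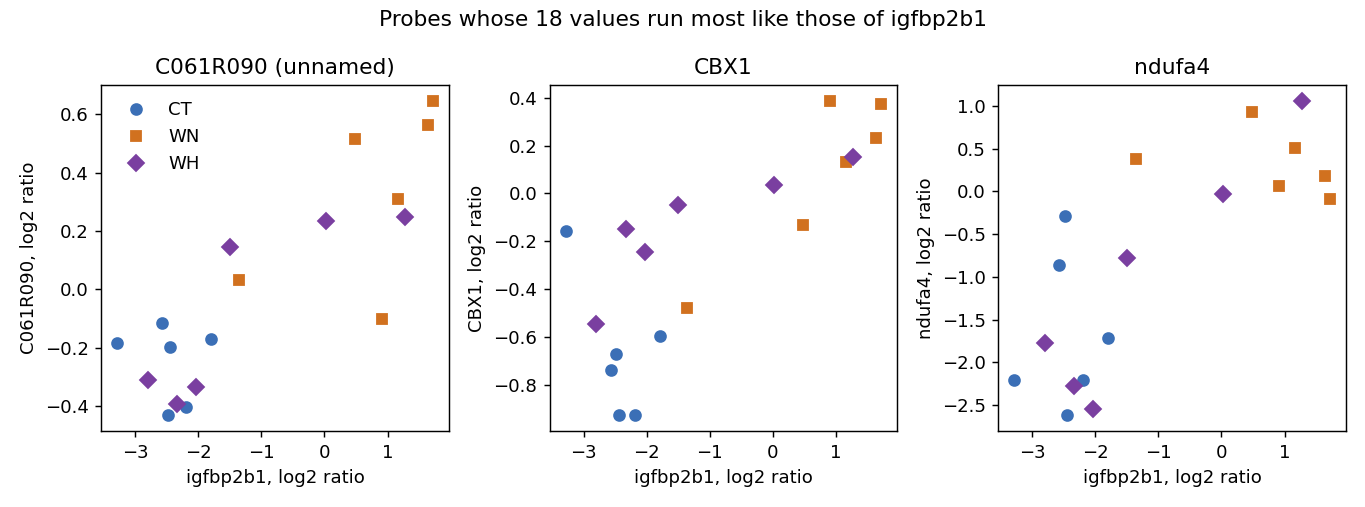
Log2 ratios of C061R090, CBX1 and ndufa4 (vertical axes, each with its own scale) against igfbp2b1 (horizontal axis) in the 18 fish, with CT as circles, WN as squares and WH as diamonds. Pearson's r over the 18 arrays is 0.85, 0.79 and 0.79, and the vertical range of C061R090 and CBX1 is far narrower than that of igfbp2b1.

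With the group means taken away, so that only differences among fish of 1 treatment count, the highest r was 0.75, at C054R043, and the central 95% of all probes lay between -0.43 and 0.46. The next were C114R039 with 0.73, C259R051 with 0.72, C003R141 with 0.72 and C132R040 with 0.71. None of these 5 has a name in the tables used here. Only C003R141 and C132R040 stood above background in both channels on 18 of 18 arrays. In the Cy3 channel C054R043 did so on 13 arrays, C259R051 on 5 and C114R039 on 3, and the log2 ratio of C114R039 was within 0.01 of 0 on 7 arrays. The likeness of these 3 probes thus rests in part on spots at the background, and nothing is read from it. C003R141 was in both lists, and ndufa4 and CBX1 had 0.56 and 0.59 by this measure.

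The rest of the IGF axis was nearly out of reach. The scanner files give most probes a cluster number in place of a gene, and names came from the study's tables for 1505 probes, of which 1495 were tested. Apart from the qPCR genes, these are probes that the study called in WN v CT on these arrays. They cover only the part of the study's WN list that could be read, and its WH list gave no names. A gene outside that part and not chosen for qPCR thus has no name here, whatever its probe shows and whether or not the study called it. Of 63 genes listed for IGF binding proteins, ligands and receptors, growth hormone signalling, insulin and IGF signal transduction, the mTOR pathway and the proteases that cut binding proteins, 1 had a named and tested probe besides igfbp2b1. No other binding protein, no IGF and no IGF receptor could be set beside it.

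That gene was jak2 (C127R086), the kinase that growth hormone receptors use to pass on their signal. The study picked jak2 for qPCR from these arrays, so its change is not independent evidence. Its log2 ratio was lowest at -1.63, -1.08 at the median and highest at -0.45 in 5 CT fish, with 1 flagged spot left out. It was -0.48, -0.23 and 0.57 in WN, and -0.60, 0.17 and 1.15 in WH. The groups overlapped in both comparisons with CT. The jak2 spot was dim, above background in Cy5 on 10 arrays, in Cy3 on 14 and in both on 8 of 18. By limma, with p adjusted by Benjamini-Hochberg across all 23846 tested probes, jak2 rose in WH v CT by 1.25 ± 0.30 (log2, SE, adjusted p = 0.0156), where 5.14% of probes passed. In WN v CT its change of 0.93 ± 0.30 had an adjusted p of 0.0781, where 4.94% passed. In WH v WN it was 0.32 ± 0.29 with an adjusted p of 0.92. There limma called 0 of 23846 probes, or 0%. An unadjusted p under 0.05 was reached by 1377, or 5.77%, against 18.9% in WN v CT and 17.9% in WH v CT. The WH v CT call of jak2 ended when slide was a block (adjusted p = 0.147), with median centring (0.194), with spot means (0.0535) and without CT-4 (0.0533). Over all alternatives its adjusted p in WH v CT ran from 0.00693 to 0.194. The 2 highest WH fish for igfbp2b1, WH-1 and WH-6, were the 2 lowest WH fish for jak2, at -0.60 and -0.43.

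The tissue label could not be checked against its own markers, since 0 of the 14 hepatocyte genes listed had a named probe. Of 46 marker genes listed in all, only ALAS2, IGHM and MYLPF had named probes. These names come from the study's list of probes it called in WN v CT on these same arrays, so their changes are not independent evidence. The 2 probes for ALAS2, a heme synthesis enzyme of red blood cells, differed by -0.57 and -0.71 in WN v CT and the 3 probes for IGHM, the immunoglobulin heavy chain of B cells, by -0.74 to -0.86. None of these 5 passed at the adjusted threshold in WN v CT, with adjusted p of 0.0665 to 0.149 by limma. The 2 probes for MYLPF, a myosin light chain of fast skeletal muscle, rose in WN v CT by 1.08 and 0.82 (adjusted p = 0.00206 and 0.0127 by limma) and in WH v CT by 0.85 and 0.68 (0.0121 and 0.0386). Of all tested probes, 4.94% passed in WN v CT and 5.14% in WH v CT. As the MYLPF probes have a name only through that list, nothing is read from their p-values. The defining erythrocyte globins and the other muscle markers had no named probe. The part of other cell types in the igfbp2b1 values was not tested, and in these bulk samples fewer cells of a type and less RNA per cell cannot be told apart.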

How the data were processed

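Liver RNA of 18 Atlantic salmon, 6 per treatment, was hybridized to 18 two-colour oligonucleotide arrays. Per the file headers, the authors quantified each spot in ImaGene. The deposited scanner files hold an intensity and a local background per channel, with flags for quality and saturation coded as other values, before normalization. The deposited table of log2 ratios was made by the authors from spot medians after taking away the background, dropping flagged spots and normalizing by loess. It holds values for 17072 probes, and it entered only as an alternative.

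Log2 ratios of Cy5 to Cy3 were computed from the intensities in R (version 4.3.3) with limma (version 3.58.1), with a normexp background (offset of 50) and within-array loess, and flagged spots were left out. On single arrays these correlated with the authors' values at 0.96 to 1.00 across probes. Flags covered 8.93% to 17.3% of probes per array. Tested were 23846 of 43689 probes, those whose spot was unflagged and exceeded its background by 2 SDs of that background in Cy5 or Cy3 on 75% of arrays. They were fitted with limma over 3 groups and adjusted by Benjamini-Hochberg with a threshold of 0.05. The fit was tested on simulated data with known changes. Fish were the unit, and p-values therefore measure the spread among fish, 3 from each of 2 tanks.

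The probe and the gene lists were chosen with earlier results of these data known. Besides C206R122, the rule named tested probes of IGF binding proteins, ligands and receptors, called probes of the other IGF lists, and the 5 probes most like C206R122 over 18 arrays with and without group means. Names come from the study's supplementary tables, and columns with the authors' own fold changes were not used. The sequence was read from the study's primer table. The study's SAM test was not run here. The alternatives were other background corrections, median centring, spot means, the authors' values, flagged spots kept, other filters, a block for slide, tank or replicate number, fits of 12 arrays, and leaving out single arrays. The number of fish limits the precision.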

Additional observations from a re-analysis of the deposited data

How the results depend on the processing

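The order CT, WH, WN of the igfbp2b1 group means held in 29 of 29 settings. Over the alternatives that kept all fish or all of the groups compared, WN minus CT ran from 3.02 to 3.53 on the log2 scale, WH minus CT from 1.22 to 1.80, WH minus WN from -2.13 to -1.59 and the SD within WH from 1.41 to 1.72. Leaving out 1 fish at a time, the ranges were 3.03 to 3.64, 0.73 to 1.55, -2.49 to -1.67 and 1.09 to 1.74. The lowest WH minus CT, 0.73, came without WH-1.

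The number of IGF axis probes called besides igfbp2b1, which can only be jak2, was 0 in WN v CT and 1 in WH v CT. It was 1 in WN v CT with the deposited log2 ratios (adjusted p = 0.0332, limma). It was 0 in WH v CT with median centring, with spot means, with slide as a block and with detection on every array. In the last of these jak2 was not tested, since it had a flagged spot and stood above background in Cy5 or Cy3 on only 16 of 18 arrays. Leaving out 1 fish it was 0 in WN v CT and 0 to 1 in WH v CT, with 0 without CT-4. In WH v WN it was 0 throughout. Over all probes, median centring gave 473 calls in WN v CT and 497 in WH v CT against 1179 and 1226, slide as a block 693 in WH v CT, and the fit without CT-6 gave 754 in WN v CT.

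The replicate numbers were not found to pair the fish: the deviations of fish with the same number correlated at -0.11 to 0.12. With a replicate block the igfbp2b1 differences were 3.22, 1.23 and -1.99, the adjusted p of jak2 in WH v CT was 0.0199, and 1006 and 1034 probes were called in WN v CT and WH v CT. With tanks as random blocks (consensus correlation -0.0501) there were 1620 and 1601 calls. A negative correlation narrows the SEs, so these higher counts give no protection against differences between tanks. The igfbp2b1 differences cannot move with either block, as the groups are balanced. The step between high and low fish, the mean of the linear ratios and the correlations with other probes were recomputed after the data had been seen. With median centring the correlations of C061R090 and CBX1 with igfbp2b1 fell to 0.62 and 0.62, while that of ndufa4 was 0.76 to 0.79 over 6 ways of processing. With 1 fish left out, C061R090 ran from 0.82 to 0.90. One spot per array measured igfbp2b1, so its technical error within an array was not tested.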
